A study of Homo sapiens with 2 samples.

Results

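Nuclear receptors are transcription factors whose activity is set by small lipophilic ligands or, for the orphan receptors, without a known hormone. They bind short response elements in DNA and recruit coactivators, which acetylate histones, or corepressors, which bring in histone deacetylases, so the same receptor can activate or silence a gene. SWI/SNF remodelers, whose ATPase is SMARCA4 (also called BRG1) or SMARCA2, are among the complexes that receptors recruit to open chromatin. The 54 genes described here encode 37 nuclear receptors, 14 coregulators and 3 CREB factors. The coregulators are the NCOA family, the corepressors, the acetyltransferases and the PGC1 coactivators. Of the CREB factors, *CREB1* is a cyclic AMP-responsive activator that uses the same acetyltransferases. The 54 genes were chosen by name, with earlier results of these data known, from the 20176 protein-coding genes of the annotation. All 54 were found in it. A member was joined to each FLAG-SMARCA4 region whose nearest edge lay within 1 kb of the transcription starting site (TSS) of any of its transcripts, and then to the regions elsewhere in its gene body.

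The data are 1 ChIP-seq library of parental TOV21G and 1 of its clone 3. TOV21G is a line from an ovarian clear cell carcinoma with mutated *ARID1A*, and clone 3 is an EIR (EZH2 inhibitor-resistant) clone selected in GSK126 at 5, 10, 15 and finally 20 μM. In both, SMARCA4 carried a FLAG tag at its endogenous locus, and single tagged colonies were expanded, so the resistant state is represented by 1 clone. ChIP-seq counts the reads (tags) that a precipitated protein brings down at each place in the genome. The libraries hold about 25600000 (parental) and 35000000 (EIR) tags, as worked out from the files. EIR values are given as scaled tags, that is, multiplied by 0.733 to bring them to the parental total. Tags are summed over a region and, unless given per kb, not divided by its length. That length was 500 to 2096 bp in the parental-higher member regions near a TSS. The fold is parental tags over scaled EIR tags, or the reverse for regions with more tags in the EIR clone. Its 95% interval is an exact Clopper-Pearson interval, which covers counting error only. Without replicate libraries no difference can be set against the spread between cultures or clones. A lower amount of tagged SMARCA4, a weaker precipitation and a lower occupancy cannot be told apart. The files list 10792 parental-higher and 2104 EIR-higher regions, selected by the authors for a difference between these libraries, so a gene with no listed region may be equally occupied in both or occupied in neither. Expression was not analysed here.

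Regions within 1 kb of a TSS were found for 34 of the 54 members, and 31 of these had more tags in parental cells while 3 had more in the EIR clone. Of the remaining members, 4 had a region in the gene body only and 16 had none (29.6%, against 69.5% of all protein-coding genes). Parental-higher regions near a TSS thus concerned 31 of 54 members (57.4%), against 23.2% of all protein-coding genes. EIR-higher regions near a TSS concerned 3 members (5.56%), against 1.96% of protein-coding genes, and 4 members (7.41%) had a region in the gene body only, against 5.9%. Members also have more annotated TSSs and are longer, with medians of 9.5 distinct TSSs and 114 kb, against 5 TSSs and 27.2 kb for protein-coding genes. Among the 5191 protein-coding genes with at least as many TSSs as the median member, 33.5% had a parental-higher and 2.89% an EIR-higher region near a TSS. The members were chosen with earlier results of these data known. Outside them, 1 of 11 further nuclear receptors and 14 of 25 further coregulators had a parental-higher region near a TSS. The parts of TSS number, gene length and the choice of members in the members' share were not tested. No member had regions of both directions near its TSSs.

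By class, a parental-higher region lay near a TSS of 19 of 37 nuclear receptors, 9 of 14 coregulators and all 3 CREB factors. No listed region was found for 15 receptors and 1 coregulator, *NCOA4*, an adaptor that also directs ferritin to autophagy, whose nearest region was 38.3 kb away. Among the roles, all 5 NR2 orphan receptors of the member list, all 4 corepressors and both acetyltransferases had a parental-higher region. *NR2E1* and *NR2E3* are not members and had no region. The 1 of 5 steroid receptors and 1 of 3 estrogen-related receptors with such a region are near the 23.2% of all protein-coding genes. These are counts of genes and were not tested, since genes are not replicates.

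**Figure D1:**
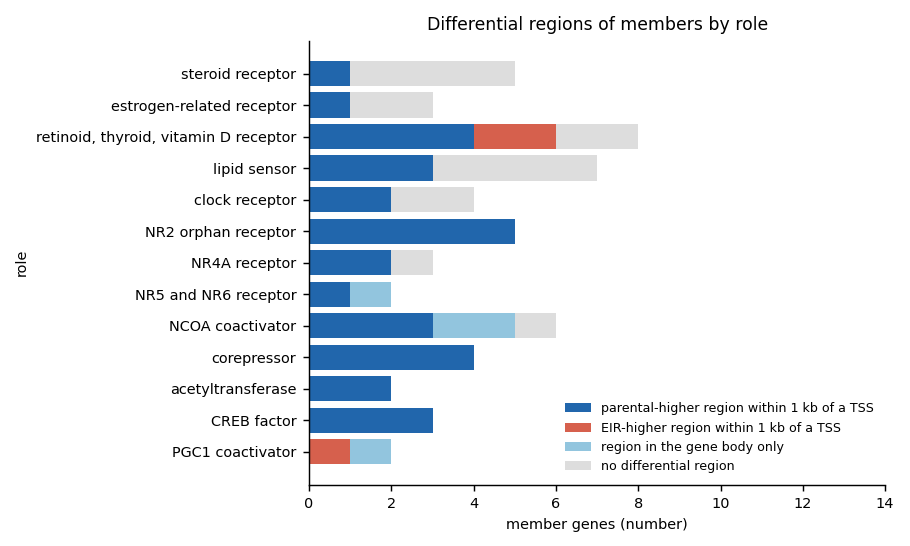
Number of member genes (horizontal axis) by role (vertical axis), split by where a differential FLAG-SMARCA4 region was found. All 5 NR2 orphan receptors and all 4 corepressors among the members had a parental-higher TSS region, and 4 of 5 steroid receptors had no region. The 3 EIR-higher members fall among the retinoid and thyroid hormone receptors and the PGC1 coactivators.

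Reference sequence from inside 7 of the TSS regions is shown for the members whose values stand out below. *NR2F6*, *ESRRA* and *NCOA6* are among the largest parental-higher folds near a TSS, *RXRA* is the partner receptor with the most tags among the retinoid receptors, and *RARB*, *THRB* and *PPARGC1B* are the EIR-higher members. Each stretch is the one nearest to the middle of its region that lies outside every annotated exon, on GRCh37 (the coordinates of hg19), written 5′ to 3′ on the strand of the gene. Capitals mark matches, on either strand, to the GC box GGGCGG or to CCAAT, the motifs that occur in these stretches among the 7 searched.
NR2F6 (chr19:17356729-17356908, minus strand): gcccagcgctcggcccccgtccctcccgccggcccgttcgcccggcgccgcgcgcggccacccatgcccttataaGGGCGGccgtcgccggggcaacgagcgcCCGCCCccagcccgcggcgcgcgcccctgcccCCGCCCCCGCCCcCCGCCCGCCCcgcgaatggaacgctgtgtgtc
ESRRA (chr11:64073209-64073388, plus strand): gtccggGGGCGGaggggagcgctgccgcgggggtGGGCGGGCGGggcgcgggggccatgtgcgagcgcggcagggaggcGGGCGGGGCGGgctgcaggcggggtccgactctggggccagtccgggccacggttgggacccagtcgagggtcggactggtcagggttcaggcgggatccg
NCOA6 (chr20:33413095-33413274, minus strand): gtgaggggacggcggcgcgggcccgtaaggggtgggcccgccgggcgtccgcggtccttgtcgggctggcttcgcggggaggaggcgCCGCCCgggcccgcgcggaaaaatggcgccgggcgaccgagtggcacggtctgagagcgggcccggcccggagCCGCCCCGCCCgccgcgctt
RXRA (chr9:137218506-137218685, plus strand): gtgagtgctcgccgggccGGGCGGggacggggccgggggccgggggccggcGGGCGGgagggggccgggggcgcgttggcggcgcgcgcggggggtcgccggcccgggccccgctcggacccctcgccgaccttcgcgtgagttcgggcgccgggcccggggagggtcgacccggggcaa
THRB (chr3:24535983-24536132, minus strand): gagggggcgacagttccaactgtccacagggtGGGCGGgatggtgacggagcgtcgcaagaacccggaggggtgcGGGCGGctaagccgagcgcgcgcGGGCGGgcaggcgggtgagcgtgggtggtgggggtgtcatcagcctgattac
RARB (chr3:25468871-25469050, plus strand): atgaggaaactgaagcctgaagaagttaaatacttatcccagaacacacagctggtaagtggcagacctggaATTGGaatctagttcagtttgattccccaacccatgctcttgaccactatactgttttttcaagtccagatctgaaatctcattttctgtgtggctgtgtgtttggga
PPARGC1B (chr5:149108668-149108847, plus strand): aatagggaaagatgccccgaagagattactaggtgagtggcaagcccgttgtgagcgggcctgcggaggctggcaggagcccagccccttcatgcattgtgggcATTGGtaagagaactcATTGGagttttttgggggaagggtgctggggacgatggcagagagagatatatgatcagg
The *NR2F6* stretch lies directly upstream of the canonical TSS and holds 6 GC box matches, some of them overlapping, with a G+C content of 83.3%. The *ESRRA*, *NCOA6*, *RXRA* and *THRB* stretches come from intron 1 and have a G+C content of 70.7 to 86.7%. The *RARB* and *PPARGC1B* stretches, upstream of the canonical TSS, have a G+C content of 42.2% and 55.0% and hold CCAAT matches but no GC box.

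Among the steroid receptors, *NR3C2*, which encodes the mineralocorticoid receptor, was the only member of 5 with a region. It held 61 tags in parental cells and 16.9 scaled tags in the EIR clone, a fold of 3.62 (95% interval 2.21 to 6.13), in a region of 1484 bp (chr4:149365175-149366659) that covers a TSS upstream of the canonical one. *ESR1* and *ESR2* (the estrogen receptors), *PGR* (progesterone receptor) and *NR3C1* (glucocorticoid receptor) had no region. The nearest listed region lay 45.5 kb from *NR3C1*, 71.7 kb from *ESR2*, 205 kb from *ESR1* and 751 kb from *PGR*. Of the estrogen-related receptors, orphan receptors that control mitochondrial genes, *ESRRA* held 39 parental tags against 9.5 scaled EIR tags over its TSS, a fold of 4.09 (2.14 to 8.36; chr11:64072907-64073407). *ESRRB* and *ESRRG* had no region, and the nearest ones were 185 and 339 kb away.

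The retinoid, thyroid hormone and vitamin D receptors differed in direction. *RXRA*, the heterodimer partner of many receptors, held 99 parental tags against 29.3 scaled EIR tags over its TSS and coding exon 1, a fold of 3.38 (2.32 to 5.00; chr9:137217687-137219279). *RARA* held 31 against 11.7 (fold 2.64, 1.40 to 5.17), *RARG* 55 against 25.7 (fold 2.14, 1.38 to 3.37) and *THRA* 30 against 9.5 (fold 3.15, 1.59 to 6.58). All of these had more tags in parental cells, and the *THRA* region also lies within 1 kb of a TSS of *MED24*, a subunit of the Mediator complex.

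*RARB* and *THRB*, which encode the β forms of the retinoic acid and thyroid hormone receptors, had more tags in the EIR clone. At *RARB*, 166 bp from a TSS (chr3:25468711-25469211), the EIR library held 23 tags, or 16.9 after scaling, and the parental library 2. The EIR over parental fold was 8.43 with an interval of 2.08 to 73.76, wide because of the 2 parental tags. A further *RARB* region 1039 bp from its nearest TSS (chr3:25471246-25471746) held 22 scaled EIR tags and 8 parental tags, a fold of 2.75 (1.23 to 6.94). This region lies just outside the 1 kb limit, while *NR5A2*, at 986 bp, is the member just inside it. At *THRB* (chr3:24535708-24536208), 34 bp from a TSS, 21.3 scaled EIR tags stood against 6 parental tags, a fold of 3.54 (1.45 to 10.44). Another gene has a TSS nearer to this region than *THRB*. The G+C content of the *RARB* TSS region was 43.1% and that of *THRB* 65.1%, against a median of 59.5% over the 495 EIR-higher regions near a TSS. *RXRB* and *VDR*, the vitamin D receptor, had no region. The nearest to *RXRB* was 224 kb away, and the nearest to *VDR* lay 9.01 kb outside the gene with 19 parental tags against 2.9 scaled EIR tags.

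Among the lipid sensors, *PPARA*, which drives fatty acid oxidation genes, held 67 parental tags against 22 scaled EIR tags over its TSS, a fold of 3.05 (1.95 to 4.86; chr22:46546176-46546940). *NR1H2* and *NR1H3*, the liver X receptors that sense oxysterols, had folds of 2.69 (1.78 to 4.14; 71 against 26.4) and 2.73 (1.27 to 6.23; 22 against 8.1). Neither of these regions lies at the canonical TSS of its gene. The middle of that of *NR1H2* is at -47.7 kb from it, and that of *NR1H3* is within 1 kb of a TSS of *MADD*. In both cases a TSS of another gene is nearer than any of the receptor gene. *PPARD*, *PPARG*, *HNF4A* and *HNF4G* had no region, and the nearest to *PPARD*, *HNF4A* and *HNF4G* were 24, 45.1 and 1090 kb away. *PPARG*, the regulator of adipocyte differentiation, has 31 annotated TSSs, more than any other receptor among the members, and its nearest region was 122 kb away.

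The clock receptors split between their paralogues. *RORA*, an activator of clock genes, held 25 parental tags against 8.1 scaled EIR tags (fold 3.10, 1.47 to 6.98), at an internal TSS. *NR1D2*, a repressor of the same elements, held 44 against 14.7 (fold 3.00, 1.73 to 5.38) in a region shared with *NKIRAS1*. *RORB* and *NR1D1* had no region, and the nearest lay 18.4 and 21.8 kb away. *NR1D1* overlaps the 3′ end of *THRA*, whose region is at the other end of that gene.

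All 5 NR2 orphan receptors among the members had a parental-higher region that covered a TSS, with folds from 1.72 to 4.57. *NR2E1* and *NR2E3*, which belong to the further receptors described below and not to the members, had no region. *NR2F6*, a repressor of cytokine genes in T cells, had the most parental tags of any member, with 181 against 39.6 scaled EIR tags in 1606 bp (chr19:17355514-17357120). Its fold of 4.57 (3.36 to 6.32) was larger than in 95.2% of the parental-higher regions near a TSS, and its tags than in 98.8%. *NR2F1* and *NR2F2*, the COUP-TF factors of organ development, held 61 against 16.9 (fold 3.62, 2.21 to 6.13) and 93 against 32.3 (fold 2.88, 1.99 to 4.23). *NR2C2* held 51 against 16.1, a fold of 3.16 (1.88 to 5.48). *NR2C1* held as many as 68 parental tags but also 39.6 scaled EIR tags, and its fold of 1.72 (1.18 to 2.50) was the smallest among the parental-higher member regions. The intervals of *NR2F6* and *NR2C1* do not overlap, although their EIR tags are equal, over 1606 bp and 752 bp.

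Of the NR4A receptors, immediate-early genes without a classical ligand, *NR4A1* held 69 parental tags against 26.4 (fold 2.61, 1.72 to 4.03) and *NR4A2* 72 against 35.2 (fold 2.05, 1.40 to 3.01). *NR4A3* had no region, and the nearest lay 560 kb away. *NR5A2*, a receptor of early development and bile acid metabolism, held 21 against 6.6 (fold 3.18, 1.40 to 7.89). *NR6A1*, the germ cell nuclear factor, had regions in intron 2 only, with 44 against 19.1 and 21 against 7.3.

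**Figure D2:**
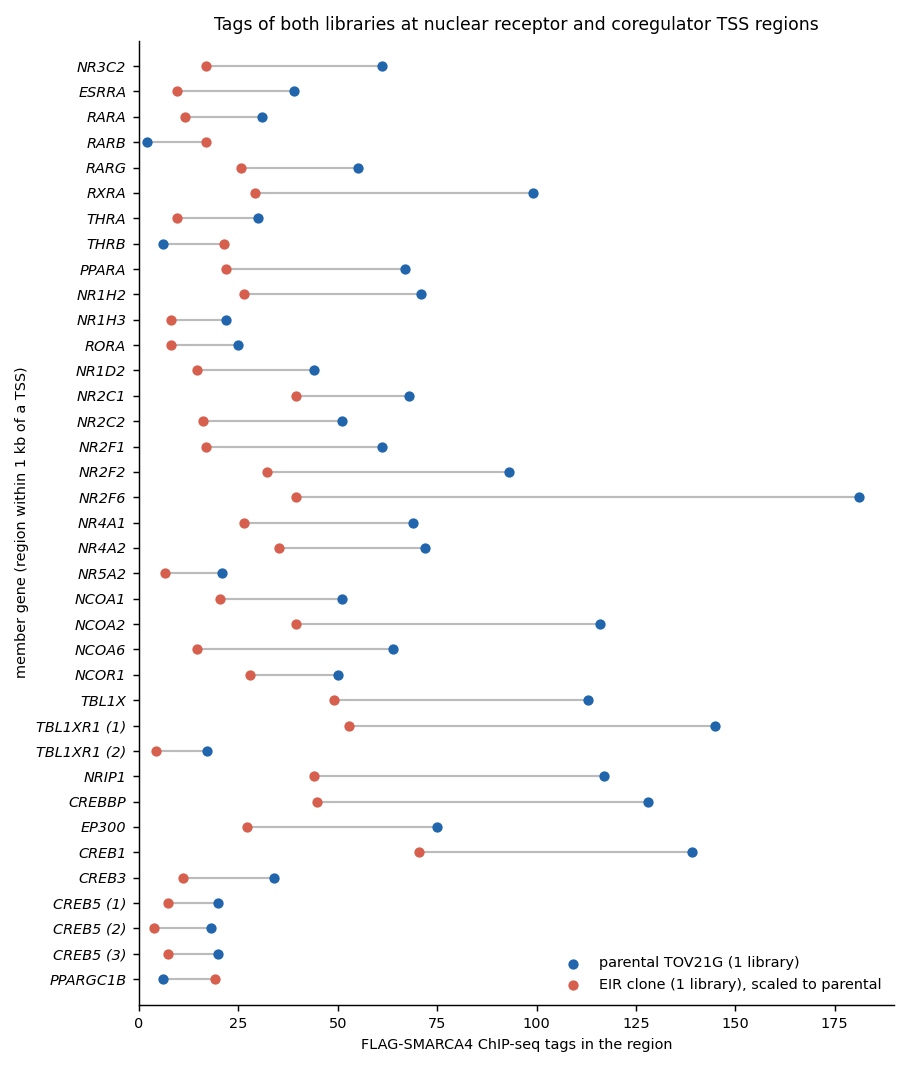
FLAG-SMARCA4 tags (horizontal axis) in each region within 1 kb of a TSS of a member (vertical axis, in order of role; genes with several regions are numbered by distance), for the parental library and for the EIR library scaled to it, with no error bars because each condition has 1 library. The parental tags exceed the scaled EIR tags at 34 regions, with *NR2F6* highest at 181, and the order is reversed at *RARB*, *THRB* and *PPARGC1B*.

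The NCOA coactivators act as platforms that link receptors to acetyltransferases. *NCOA2* held 116 parental tags against 39.6 scaled EIR tags over its TSS, a fold of 2.93 (2.10 to 4.13), and *NCOA1* held 51 against 20.5 (fold 2.48, 1.54 to 4.09). *NCOA6* held 64 against 14.7, and its fold of 4.37 (2.61 to 7.62; chr20:33412728-33413728) had an interval above the median of all protein-coding genes given below, as only *NR2F6* did among the others. *NCOA3*, amplified in some breast cancers, and *NCOA7* had 3 regions each in introns and none near a TSS.

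The corepressors and the acetyltransferases were all parental-higher. *TBL1XR1* and *TBL1X*, the WD-repeat subunits of the NCOR complex, held 145 against 52.8 (fold 2.75, 2.06 to 3.70) and 113 against 49.1 (fold 2.30, 1.69 to 3.16). A weaker region beside another TSS of *TBL1XR1* held 17 against 4.4, a fold of 3.87 (1.45 to 11.97). *NRIP1*, a ligand-dependent corepressor, held 117 against 44 (fold 2.66, 1.93 to 3.69). *NCOR1*, the scaffold of that complex, had the smallest fold among the coregulators, 1.80 (1.15 to 2.81), with 50 against 27.9. The closely related acetyltransferases *CREBBP* and *EP300* held 128 against 44.7 and 75 against 27.1, in regions of 1698 bp and 910 bp. Per kb of region the tags were close, 75.4 against 26.3 at *CREBBP* and 82.4 against 29.8 at *EP300*. Their folds, 2.86 (2.09 to 3.95) and 2.77 (1.84 to 4.22), lay inside each other's interval.

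*CREB1*, the main cyclic AMP-responsive factor, held 70.4 scaled EIR tags against 139 in parental cells, a fold of 1.98 (1.51 to 2.59). That EIR total was the largest of any member, in a long region of 2090 bp. Per kb it was 33.7, below the 55.8 at *NCOR1* and the 52.7 at *NR2C1*. *CREB3*, a membrane-bound factor of the secretory pathway, held 34 against 11 (fold 3.09, 1.64 to 6.11), in a region that is nearer to a TSS of *TLN1*. *CREB5* had 3 weak parental-higher regions beside different TSSs, with 20 against 7.3 at each of a pair of them (fold 2.73, 1.22 to 6.53) and 18 against 3.7 at the other, whose fold of 4.91 (1.76 to 16.92) was the largest among the parental-higher TSS regions and rested on 5 EIR tags. The PGC1 coactivators, which induce mitochondrial biogenesis, had no parental-higher TSS region. At *PPARGC1B*, 853 bp upstream of the nearest TSS (chr5:149108508-149109008), 19.1 scaled EIR tags stood against 6 parental tags, an EIR over parental fold of 3.18 (1.28 to 9.44). In intron 1 of the same gene a region had the opposite direction, with 25 parental tags against 7.3 (fold 3.41, 1.58 to 7.96). *PPARGC1A* had regions in the gene body only, with 48 against 16.9 and 27 against 8.1.

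The median fold over the 31 members with a parental-higher TSS region, taking the nearest region of each, was 2.88 (range 1.72 to 4.91), beside 2.52 over the 4671 protein-coding genes with such a region. It was 3.05 over the 19 receptors, 2.75 over the 9 coregulators and 3.09 over the 3 CREB factors. Of the 34 regions, 31 had an interval that holds the value of all genes, 2 lay above it (*NR2F6* and *NCOA6*) and 1 below it (*NR2C1*), so that most neighbours in the order of folds cannot be separated at this depth. All 12896 regions of the files (100%) had a Benjamini-Hochberg adjusted *P* under 0.05 in an exact binomial test (two-sided) of their tags, the 74 member regions included, so passing it separates no member from the rest.

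**Figure D3:**
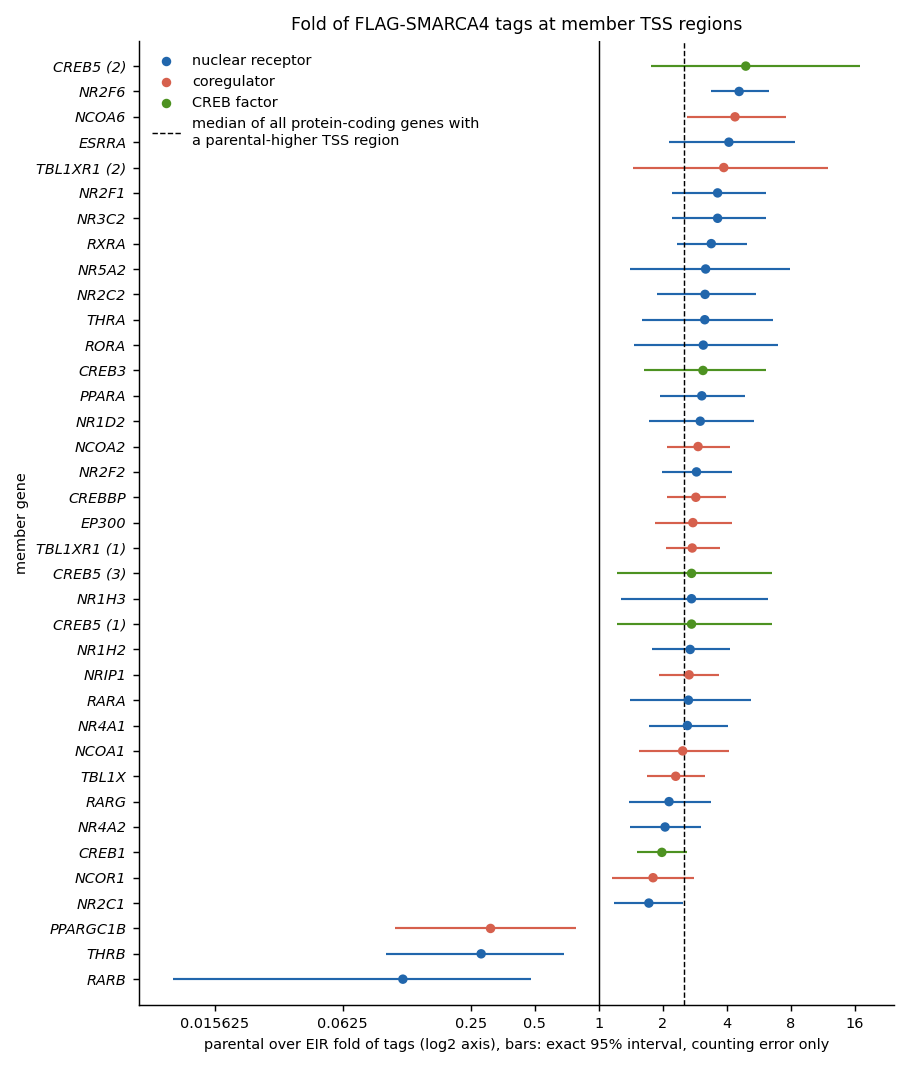
Parental over EIR fold of FLAG-SMARCA4 tags (log2 axis) at each TSS region of a member, with exact 95% intervals of counting error, coloured by class. The dashed line is the median of all protein-coding genes with a parental-higher TSS region, 2.52, which lies inside 31 of the 34 parental-higher intervals, and the intervals of *RARB*, *THRB* and *PPARGC1B* lie below 1.

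The regions differed in where they sit along the genes. Of the 34 parental-higher regions near a TSS, 25 covered an annotated TSS, as did 70.2% of all parental-higher regions near a TSS, and 16 covered that of the canonical transcript. For 9 members, no region lay within 1 kb of the canonical TSS, and those found were at other annotated starts (*CREB5*, *NR1H2*, *NR1H3*, *NR3C2*, *NR4A1*, *NR5A2*, *RARA*, *RARG* and *RORA*). The middle of the *RORA* region lay 637 kb downstream of the canonical TSS, where shorter transcripts begin, that of *RARA* 36.2 kb and that of *RARG* 10.5 kb downstream. The middle of the *NR4A1* region was at -14.2 kb, upstream of the canonical TSS. In 8 of these 9 genes, all but *CREB5*, the product is a receptor. Receptors were 19 of the 31 members with a parental-higher TSS region. The share of such genes over all protein-coding genes was not computed, and the difference between the classes was not tested.

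The members also had 37 regions in their gene bodies away from any of their TSSs, 33 parental-higher and 4 EIR-higher. Coregulator genes held 25 of the 33 over 2.34 Mb of gene, or 10.7 per Mb, and receptor genes 5 over 6.13 Mb, or 0.815 per Mb, beside 2.71 per Mb over all protein-coding genes. *TBL1XR1* alone had 7, and without it the member coregulators had 8.45 per Mb. Of the 25 further coregulators described below, only *CTBP2*, *LCOR* and *ANKRD11* had parental-higher gene body regions, and their density was not computed. Among the 25 regions in member coregulators, 1 in *NCOA6*, with 57 parental tags against 23.5, lies within 1 kb of a TSS of another coding gene, *TP53INP2*. *NCOA2* had 4, and *NRIP1*, *NCOA3* and *NCOA7* had 3 each. The largest parental over EIR fold was 5.18 (1.87 to 17.76) in intron 2 of *TBL1X*, with 19 parental tags against 3.7. In *NCOA2* the fold was 4.91 (1.76 to 16.92) in intron 11, with 18 against 3.7, and 4.55 (1.76 to 13.84) in intron 4, with 20 against 4.4. It was 4.09 (1.56 to 12.59) both in intron 1 of *NCOA3* and in intron 2 of *NRIP1*, with 18 against 4.4 in each. Each rests on 5 or 6 EIR tags. The EIR-higher gene body regions were in *RARB*, given above, in *RXRA* (20.5 scaled EIR tags against 6, fold 3.42, 1.39 to 10.10), in *NR1H2* (16.1 against 5, fold 3.23, 1.19 to 10.90) and in *CREB5* (16.9 against 5, fold 3.37, 1.25 to 11.35). The *RXRA* one lies in intron 1 and begins within 1 kb of the end of the parental-higher TSS region of that gene, so regions of opposite direction are neighbours there.

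Regions near a TSS and in gene bodies were unlike in G+C content, tags and length. The parental-higher TSS regions of members had a median of 61 parental tags and a median G+C content of 71.2%, and the parental-higher gene body regions 23 tags and 41.7%. Their median lengths were 900 bp and 500 bp, so these tags were not counted over equal lengths. Over all protein-coding genes the gene body regions had medians of 22 tags and 43.5%, and all parental-higher regions near a TSS 46 tags and 70.0%. Median folds were 2.87 near a TSS and 2.92 in gene bodies.

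**Figure D4:**
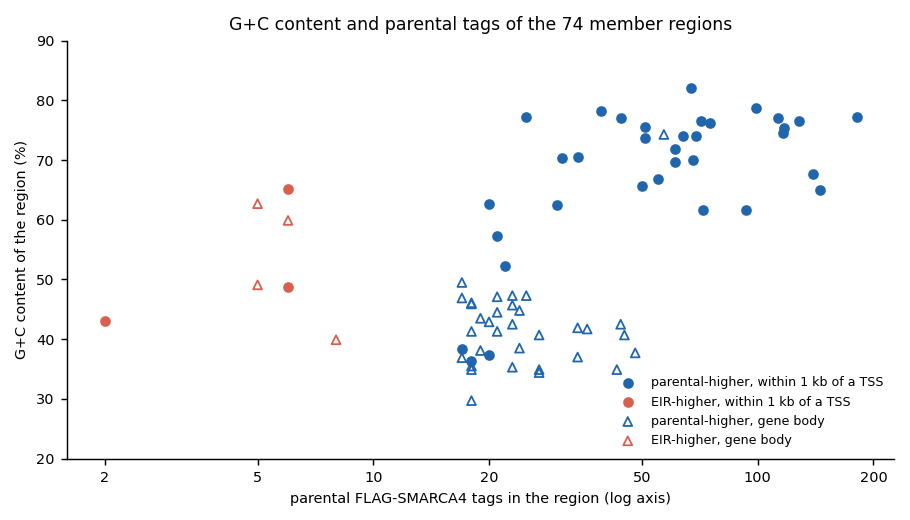
G+C content of each of the 74 member regions (vertical axis, %) against its parental FLAG-SMARCA4 tags (log axis), by position (filled circles within 1 kb of a TSS, open triangles in the gene body) and direction (blue parental-higher, red EIR-higher). Most TSS regions lie above 60% with up to 181 tags, parental-higher gene body regions mostly around 40% with 17 to 57 tags (1 lies at 74.3%, in *NCOA6* near a TSS of *TP53INP2*), and EIR-higher regions at 2 to 8 parental tags.

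Motifs were counted in the 300 bases around the middle of each TSS region, on both strands. The receptor core motif AGGTCA was found in 4 of 34 parental-higher member regions (11.8%), at *CREB3*, *CREB5* and *THRA*, beside 9.85% of all 5196 parental-higher regions near a TSS. GGGCGG was found in 26 (76.5%, against 65.6%) and CCAAT in 5 (14.7%, against 13.9%). The ETS core CCGGAAG was in 2 (5.88%, against 5.72%), the E-box CACGTG and the AP-1 motif TGANTCA in 1 each (2.94%, against 4.31% and 4.18%), and the cyclic AMP element TGACGTCA in 0 (against 0.346%). All 3 EIR-higher member regions held CCAAT, which 22% of the 495 EIR-higher regions near a TSS hold, 1 held GGGCGG (28.7% of them), and none held AGGTCA (13.9%), TGACGTCA (0.606%), CCGGAAG (5.25%), CACGTG (6.67%) or TGANTCA (6.06%). A match is a string of letters and not a bound site.

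Genes of the pathway outside the members were taken from 3 lists. Of 11 further nuclear receptors, 1 had a region near a TSS. It was *NR0B1*, a receptor without a DNA-binding domain, with 17 parental tags against 4.4 scaled EIR tags (fold 3.87, 1.45 to 11.97). The other 10 had no region anywhere in the gene. Of 25 further coregulators, 14 had a parental-higher region near a TSS and 11 had no region. Of 35 known targets of receptors, 14 had a parental-higher and 1 an EIR-higher region near a TSS, 6 had a gene body region only and 14 had none. The target with an EIR-higher region near a TSS was *STRA6*, the retinol uptake receptor and a retinoic acid target. It held 24.2 scaled EIR tags against 9 parental tags (fold 2.69, 1.26 to 6.39). EIR-higher gene body regions were found in the targets *ZBTB16* (18.3 against 4, fold 4.58, 1.58 to 18.11), *FKBP5* (17.6 against 5, fold 3.52, 1.32 to 11.81) and *TGM2* (16.1 against 5, fold 3.23, 1.19 to 10.9). The coregulator *LCOR* also had one (16.1 against 5, fold 3.23, 1.19 to 10.9). *FKBP5* and *LCOR* had a parental-higher region near a TSS as well. These shares, 14 of 25 coregulators and 1 of 11 receptors, can be read beside the 23.2% of all protein-coding genes and were not tested.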

How the data were processed

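FLAG-SMARCA4 ChIP-seq reads of 2 libraries, parental TOV21G cells and EIR clone 3, were aligned by the authors with Bowtie 0.12.9 to hg19, and regions were called with HOMER in histone style with the other library as control, at an FDR of 5%. The deposited tag counts are parental tags without scaling. The deposited signal columns hold EIR tags scaled to the parental total, parental tags of the EIR-higher list, with 0.5 for no tag, and tags per 10000000. The deposited HOMER p-value served only to choose between equally near regions of a gene, and the deposited fold (ratio) was not used. The assignment of libraries to conditions comes from the labels and the methods.

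Whole EIR tags were recovered from the steps of the scaled values (0.733 per tag, 98.8% of distinct values from 5 to 200 whole within 0.05), the parental total from tags and normalized tags, and the EIR total from it and that step. Regions were joined to all TSSs of GENCODE release 44 on GRCh37. Folds have exact 95% intervals, and the exact binomial test was adjusted over all regions. Members, lists and tests were chosen with earlier results of these data known. Every member is named, and of the gene body regions those of largest fold in each direction. *ARNTL* of the target list was found as *BMAL1*. Scripts were tested on simulated data. Alternatives varied the window, TSS set, minimum fold, call and scaling. Statistics used scipy 1.17.1 under Python 3.11.15 (with pandas 2.3.3 and numpy 2.4.6), sequences samtools 1.23.1 and pysam 0.24.0, and plots matplotlib 3.10.9.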

Additional observations from a re-analysis of the deposited data

How the results depend on the processing

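The counts of members moved with the TSS set, the window and the minimum fold. With the 5′ end of each gene in place of every transcript, 17 members had a parental-higher and 1 an EIR-higher region within 1 kb, and 20 had a gene body region only. With the canonical transcript only, an alternative chosen after seeing the data, the gene body count was 13. The gene body count was 9 with a window of 500 bp, 2 with 5 kb and 8 with distance from the centre of a region, and with 5 kb the EIR-higher count was 5. The number of members without a region was 16 in each of the 6 settings run on it. These settings changed only the window, the distance rule or the TSS set, which mainly move genes between the TSS and gene body counts. Minimum fold, call and scaling were not varied for this number, so its constancy says nothing about them. With a fold of at least 4, 4 members were parental-higher and 1 EIR-higher. With the EIR library scaled 1.5 times higher, 23 of the 31 parental-higher members had an interval excluding 1, those lost being *NCOR1*, *NR1H3*, *NR2C1*, *NR4A2*, *NR5A2*, *RARA*, *RARG* and *RORA*, and the median fold was 1.92. With it scaled 1.5 times lower the median fold was 4.33 and 1 EIR-higher member remained, *RARB*. Counting only regions whose nearest TSS belongs to the member, also chosen later, gave 28 and 2. No paired analysis was possible because each condition has 1 library. For the same reason no library could be left out.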
